A study of Homo sapiens with 6 samples.

Results

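The nuclear-encoded subunits of the respiratory chain were followed across 2 human gastric cancer cell lines and 3 transfection states. The members were the genes with a symbol of the families NDUFA, NDUFB, NDUFC, NDUFS and NDUFV (complex I), SDHA to SDHD (complex II), the UQCR genes and CYC1 (complex III), the COX4I, COX5, COX6, COX7 and COX8 genes (complex IV) and the ATP5 genes (complex V). A gene entered through a probe set annotated to it alone, and its brightest such probe set over the 6 arrays stood for it. This gave 77 genes of the 19775 with a single-gene probe set, namely 32 of complex I, 3 of complex II, 7 of complex III, 17 of complex IV and 18 of complex V. Of these, 73 were bright enough to be tested, because at least 2 of the 6 arrays read above 50.53, the median of all values. The 4 dim members were COX7A1, COX7B2 and COX8C, which read between 2.36 and 31.5 on every array, and ATP5MF, which read between 7.21 and 12.6 in AGS and between 26.7 and 73.9 in HGC-27. Symbols such as ATP5MGL, NDUFC2, SDHB, UQCRFS1 and UQCRH also fit the families but had no single-gene probe set and were not analysed here. The gene once called NDUFA4 carries the symbol COXFA4 in RefSeq and lay outside the families.

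The respiratory chain is a row of protein complexes in the inner mitochondrial membrane. Complex I takes electrons from NADH and complex II from succinate, complex III passes them to cytochrome c, complex IV hands them to oxygen, and complex V, the ATP synthase, uses the proton gradient built on the way to make ATP. Complexes I, III, IV and V also contain subunits encoded by mitochondrial DNA, whereas every subunit of complex II is encoded in the nucleus, and proliferating cancer cells keep these genes active beside a high rate of glycolysis.

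AGS is a line from a gastric adenocarcinoma that grows as an epithelial sheet, and HGC-27 is a line from a lymph node metastasis of an undifferentiated gastric carcinoma. From each line came 1 array of parental cells, untransfected and with no genetic modification, 1 of cells nucleofected with 3 µg of empty vector and 1.5 µg of a GFP plasmid, called the GFP control, and 1 of cells nucleofected with 3 µg of MIST1 plasmid and the same GFP plasmid. MIST1, the product of BHLHA15, is a basic helix-loop-helix transcription factor of secretory cells such as the zymogenic cells of the stomach. The transfected cells were sorted for GFP at 24 h and grown for a further 24 h, the parental cells carried neither step, and 5 µg of total RNA went into each Affymetrix target. The expression was transient, from plasmids, and no condition was repeated within a line, so that all p-values measure the spread between single arrays and not between cultures.

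The deposited values are linear intensities, with array medians between 49.12 and 51.96, and the number of arrays limits the precision. The BHLHA15 probe set read 66.3 in the AGS parental array, 75.8 in its GFP control and 72.5 in its MIST1 array, against 41.1, 61.9 and 58.7 in HGC-27. It was not higher in the arrays labelled MIST1 than in the GFP controls, and since no source used here says whether it reads the plasmid, it does not check the labels. The lines matched different marker lists. The summed intensity of 9 gastric epithelial genes lay between 45234 and 52328 in AGS and between 1507 and 1787 in HGC-27, with KRT19 between 5.9 and 9.2 in HGC-27, whereas the summed intensity of 10 mesenchymal genes lay between 1396 and 2240 in AGS and between 29833 and 34368 in HGC-27. The 3′ over 5′ ratio of ACTB stayed between 0.968 and 1.05 on all arrays. The middle probe set for 18S ribosomal RNA fell from 1142 to 48.2 and 46.8 in AGS and from 371 to 52.0 and 52.7 in HGC-27 between the parental and the transfected arrays; its part in the results was not tested.

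The first comparison was between the lines. Under the deposited scaling, complex I and complex V subunits were mostly lower in AGS than in HGC-27. The subunits of complexes II, III and IV were spread around 0. Of the 73 members tested, 14 were higher and 33 lower in AGS at an adjusted p under 0.05, which is 47 of 73, against 60.1% of all 13738 genes tested. Among all genes, 33.1% were higher and 27.1% lower in AGS. In bulk RNA, fewer cells that express a gene and less of its RNA per cell cannot be told apart. The median difference, AGS minus HGC-27 on the log2 scale, was -0.14 over the members and 0.06 over all genes tested. The split depended on the scaling of the arrays, with 9 higher and 41 lower after quantile normalization and 7 higher and 38 lower with each array centred on its median, where the members' medians were -0.30 and -0.29. By complex, the median was -0.32 for complex I with 4 members higher and 18 lower of 32, and -0.27 for complex V with 4 higher and 9 lower of 17. It was 0.07 for complex II with 1 higher and 1 lower of 3, -0.03 for complex III with 1 higher and 2 lower of 7, and 0.03 for complex IV with 4 higher and 3 lower of 14. Medians were also taken relative to all genes tested on each array, in the order parental, GFP control and MIST1. Complex IV gave 3.95, 3.97 and 3.96 in AGS, against 4.20, 4.13 and 4.17 in HGC-27. Complex III gave 3.56, 3.73 and 3.84, against 3.89, 3.915 and 3.89. Complex II gave 3.18, 3.26 and 3.13, against 3.41, 3.21 and 3.31. Complex I gave 3.14, 3.12 and 3.13, against 3.36, 3.23 and 3.23, and complex V gave 4.17, 4.15 and 4.05, against 4.53, 4.44 and 4.42. By that measure complexes III and IV were lower in AGS too, as were complexes I and V. The median of all genes is taken off every complex on an array alike, so it leaves the contrast between complexes unchanged. These are medians of levels, whereas those by complex above are medians of the differences of single genes. These medians are descriptions, and no test compared the complexes with one another. The 3 conditions of a line stood in for replicates, and the values of the 2 lines did not overlap for 48 of the 73 members, against 61.4% of all genes.

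**Figure D1:**
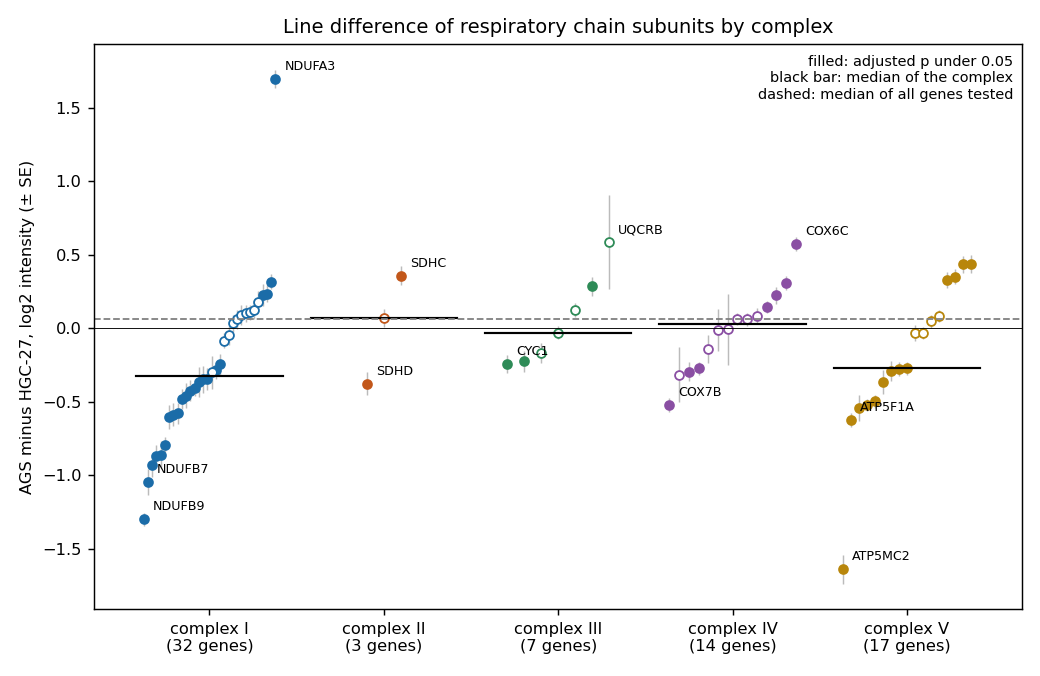
The difference between the lines, AGS minus HGC-27 in log2 intensity, is plotted for each of the 73 members tested, ordered within complexes I to V. Points are the fitted differences with their standard errors (3 conditions a line), filled where the adjusted p is under 0.05, black bars are the medians of the complexes and the dashed line is the median of all genes tested. Complexes I and V lie mostly below 0, with medians of -0.32 and -0.27, and NDUFA3 stands alone at 1.70.

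The largest single difference upward was in NDUFA3, an accessory subunit of complex I. It read 4495, 4502 and 4277 in the parental, GFP control and MIST1 arrays of AGS and 1373, 1382 and 1343 in those of HGC-27. All AGS arrays lay far above all HGC-27 arrays, a 3.24-fold difference (log2 1.70, SE 0.06, adjusted p = 1.95e-06), and NDUFA3 was the only member at least 1.5-fold higher in AGS in all 3 conditions, where 19.5% of all genes were. It has 1 probe set, so no second one could be compared. NDUFB4 and NDUFA2, further accessory subunits, were higher in AGS by smaller amounts, 0.32 (SE 0.05) and 0.24 (SE 0.06) on the log2 scale. For NDUFA2 the sign turned under another choice of probe sets: its mean over all probe sets gave -0.10.

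Downward, NDUFB9, an accessory subunit of the membrane arm of complex I, read 5389, 4924 and 5162 in AGS against 12543, 12757 and 12764 in HGC-27. The HGC-27 arrays were all higher, by 2.46-fold (log2 difference -1.30, SE 0.05, adjusted p = 1.51e-06). NDUFB7 read 1485, 1082 and 1195 in AGS, compared with 2709, 2501 and 2481 in HGC-27, again without overlap (-1.04, SE 0.09). NDUFA7 read 1314, 935 and 996 in AGS, against 2520, 1896 and 1782 in HGC-27, a difference of -0.93 (SE 0.08). NDUFS7, a core subunit that carries an iron-sulfur cluster, read 1493, 1469 and 1417 against 2697, 2870 and 2443 (-0.87, SE 0.07). Each of these, together with NDUFV3 (-0.86), NDUFA13 (-0.79) and, in complex V, ATP5MC2, was at least 1.5-fold lower in AGS in all 3 conditions, which makes 7 members, where 15.1% of all genes were. The dim second probe set of NDUFB7, between 52.6 and 86.3, differed by 0.07 in the other direction. Further core subunits of complex I were lower in AGS as well, with NDUFS3 at -0.58, NDUFV1 at -0.48 and NDUFS1 at -0.34, whereas the core subunit NDUFV2 differed by 0.13 (adjusted p = 0.142).

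In complex V, ATP5MC2 is 1 of 3 genes for subunit c, which forms the membrane ring of the ATP synthase. It read 2110, 1566 and 1479 in AGS, compared with 5397, 5363 and 5091 in HGC-27. HGC-27 was 3.11-fold higher without overlap (log2 difference -1.64, SE 0.10, adjusted p = 1.57e-05), the largest downward difference among the members tested. ATP5MC1, which encodes the same mature protein, was lower in AGS by less (-0.37, SE 0.08), and ATP5MC3 differed by 0.05 (adjusted p = 0.401). Of the catalytic head, ATP5F1A, the alpha subunit, read 6523, 6181 and 5779 in AGS, against 9421, 9470 and 9535 in HGC-27 (-0.62, SE 0.05), ATP5F1B, the beta subunit, differed by -0.52 (SE 0.04) and ATP5F1D, the delta subunit, by -0.54 (SE 0.09). The other way, ATP5F1E, the epsilon subunit of the head, was higher in AGS (0.33, SE 0.05). Also higher in AGS were ATP5IF1, an inhibitor of ATP hydrolysis by the enzyme (0.44, SE 0.06), ATP5PF of the peripheral stalk (0.44, SE 0.06) and ATP5MK (0.35, SE 0.05). ATP5IF1 reversed with the probe set: its bright probe sets were higher in AGS, by 0.44 and 0.61, and a dimmer one read between 253 and 284 in AGS and between 630 and 735 in HGC-27, a difference of -1.29.

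In complex II, SDHC, a membrane anchor, read 4315, 3431 and 3052 in AGS, compared with 3155, 2705 and 2521 in HGC-27. The lowest AGS array lay below the highest HGC-27 array, but within each condition AGS was higher, by 0.36 in the fit (SE 0.06, adjusted p = 0.00292). SDHD, the other anchor, read 3284, 2537 and 2664 in AGS, against 3711, 3503 and 3734 in HGC-27, all lower in AGS (-0.38, SE 0.08). SDHA, the flavoprotein that oxidises succinate, differed by 0.07 (adjusted p = 0.354). In complex III, UQCRC1, a core protein, was higher in AGS (0.29, SE 0.07), and CYC1, the cytochrome c1 subunit, and UQCR11 were lower (-0.24 and -0.22). UQCRC2 differed by -0.17 (adjusted p = 0.0633) and UQCR10 by 0.12 (adjusted p = 0.0581). UQCRB differed by 0.59 (adjusted p = 0.16), with a reading of 16180 in the AGS MIST1 array. Its second bright probe set differed by -0.32.

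In complex IV, COX6C read 6514, 6526 and 7041 in AGS, compared with 4340, 4565 and 4579 in HGC-27 and was higher in AGS without overlap (0.57, SE 0.05). COX7B read 5651, 5131 and 5344 in AGS, against 7753, 7638 and 7760 in HGC-27 and was lower (-0.52, SE 0.05). COX5B and COX8A were lower by 0.29 and 0.27 on the log2 scale, while COX6A1 and COX7A2 were higher by 0.31 and 0.22. Several complex IV subunits exist as a ubiquitous and a tissue-restricted form, and both lines read the ubiquitous ones. The probe sets of the tissue-restricted forms read low in each of the 6 arrays: COX4I2 read 41.6 to 94.7, COX6A2 38.1 to 62.5 and COX6B2 112 to 148, beside the untested COX7A1, COX7B2 and COX8C. Their partners COX4I1 and COX6B1 differed between the lines by 0.06 (adjusted p = 0.268) and 0.14 (adjusted p = 0.0189); the difference of COX6B1 was -0.00152 with each array centred on its median. COXFA4, a complex IV subunit by current naming, read 5594, 5460 and 5567 in AGS, compared with 7368, 8033 and 7976 in HGC-27 (-0.49, SE 0.05, adjusted p = 0.000193).

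Of the 47 members that differed between the lines, 40 passed under both other scalings, 7 of them higher and 33 lower in AGS. The 7 were ATP5F1E, ATP5IF1, ATP5MK, ATP5PF, COX6C, NDUFA3 and SDHC. Another 34 probe sets of the 47 members passed the brightness limit, and 27 of them had the sign of the brightest one and 7 the other sign, in ATP5F1E, ATP5IF1, NDUFA2, NDUFB7, NDUFS1 and SDHC.

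**Figure D2:**
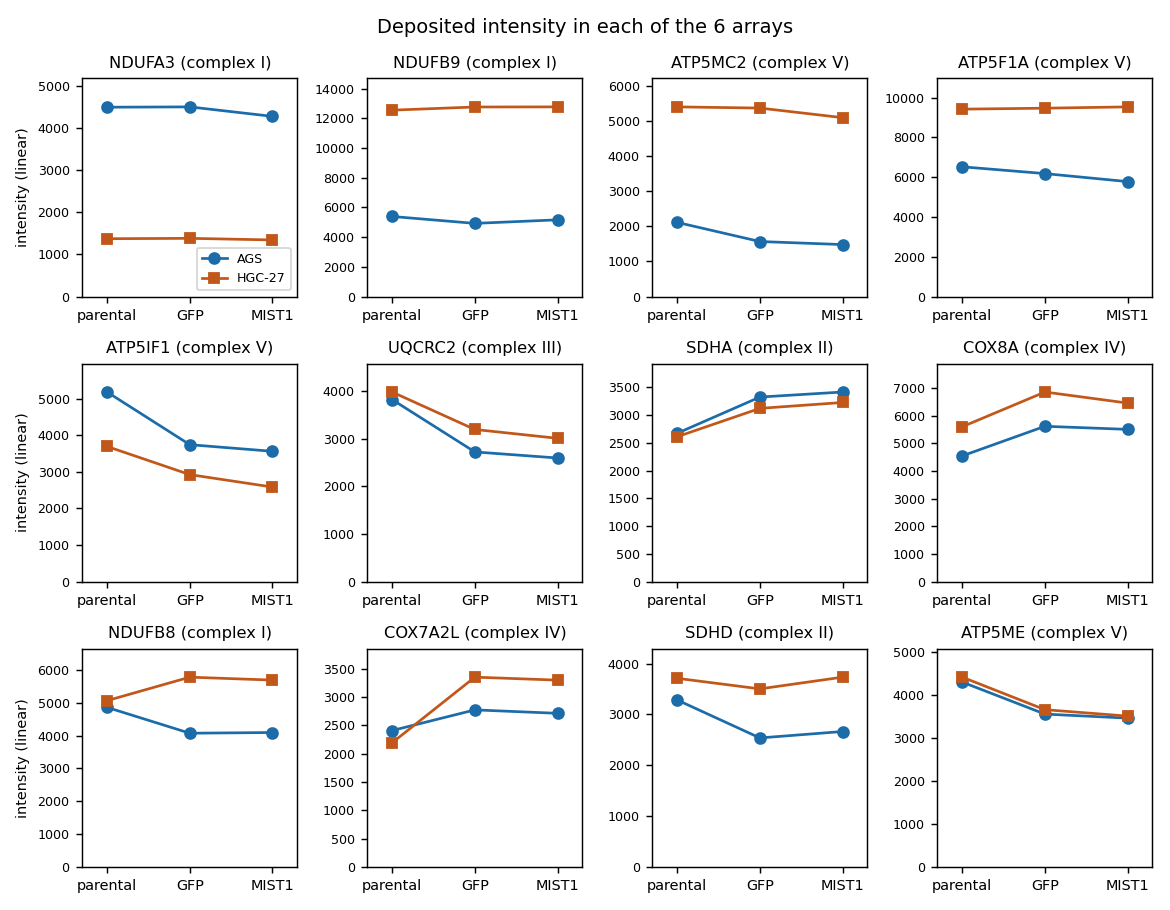
The deposited linear intensity of 12 members is drawn for the parental, GFP control and MIST1 arrays of AGS (circles) and HGC-27 (squares), 1 array a point, with each vertical axis starting at 0. NDUFA3 is high in AGS alone (4277 to 4502), ATP5MC2 in HGC-27 alone (5091 to 5397), ATP5IF1 and UQCRC2 are lower in the transfected arrays of both lines, and SDHA and COX8A are higher in them.

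The members lower in AGS were looked at by position, a choice made after their values were seen. Among the 63 members tested that have an entry in the RefSeq promoter table (GRCh38.p14), 9 lay on chromosome 19. The 6 within its first 25 Mb, NDUFA7, NDUFA11, NDUFA13, NDUFB7, NDUFS7 and UQCR11, were all lower in AGS, and of all 365 genes tested in that stretch 48.8% were lower and 18.9% higher. Over the rest of the chromosome COX6B1 and NDUFA3 were higher and COX6B2 did not pass, and of the 466 genes there 10.9% were lower and 55.8% higher. The share of genes lower in AGS was thus high in that stretch as a whole, not in these members alone. Over all genes tested with an entry, 27.0% were lower and 33.6% higher. No gene tested had an entry on chromosome 8. Members without an entry, among them NDUFB9, COX6C, CYC1 and UQCRB, are missing from this view and from the promoter search below. On chromosome 3, where 42.4% of 679 genes were higher, both members with an entry, NDUFB4 and UQCRC1, were higher as well. The call of NDUFB4 held under 1 of the 2 other scalings, and those of UQCRC1 and COX6B1 under neither. Elsewhere members departed from the share of their chromosome. On chromosome 11, 4 of 5 members were lower, where 25.3% of genes were lower and 27.8% higher. On chromosome 17, 2 of 2 were lower, where 24.0% were lower and 28.4% higher. The part of position was not tested.

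Promoters of these genes are known to carry sites for NRF1, for GABP and other ETS factors, and for YY1, and the members' promoters were read for them because the members moved apart between the lines. For 65 members the table held the 250 bases before and 50 bases after the start. Searched on both strands, GCATGCGC, the core of the NRF1 site, was in 12 of them (18.5%) and in 3.27% of all 27305 promoters. CCGGAAG, an ETS or GABP site, was in 18 (27.7%) and in 10.7% of all promoters, and AAGATGGC, a YY1 site, in 10 (15.4%) and in 3.03%. Among the 11065 promoters of genes tested the shares were larger, with 5.02% for NRF1, 17.9% for ETS or GABP and 5.01% for YY1. At least 1 of the 3 was in 32 members (49.2%), against 15.6% of all promoters and 25.2% of those of the genes tested. It was in 20 of the 28 members lower in AGS (71.4%) and in 7 of the 12 higher in AGS (58.3%). The same shares were not counted over all genes lower or higher in AGS, so this split has no background beside it. A link of the motifs to the line difference was not tested. By complex the share was 46.7% of 30 for complex I, 1 of 2 promoters for complex II, 3 of 5 for complex III, 35.7% of 14 for complex IV and 64.3% of 14 for complex V. A match is a description of the letters, not a site shown to be bound.

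The 250 bases before the start of 6 members are shown 5′ to 3′ on the strand of the gene, in the GRCh38.p14 build, with matches to the 3 motifs in capitals. ATP5MC2 (chr12:53676084-53676333, minus strand) had the largest downward difference between the lines and NDUFS7 (chr19:1383657-1383906, plus strand) lies in the stretch of chromosome 19, and each holds 1 NRF1 core, 40 and 73 bases before the start. SDHD (chr11:112086623-112086872, plus strand), lower in AGS, holds overlapping NRF1 cores on both strands at 108 and 110 bases and an ETS match at 77 bases. ATP5PF (chr21:25735055-25735304, minus strand), higher in AGS, was the only member with all 3 motifs, NRF1, YY1 and ETS, at 120, 57 and 30 bases. ATP5ME (chr4:674277-674526, minus strand) and COX8A (chr11:63974370-63974619, plus strand) are shown because they fell and rose, respectively, in the transfected cells of both lines, and they hold an NRF1 core at 78 bases and an ETS match at 18 bases.
ATP5MC2: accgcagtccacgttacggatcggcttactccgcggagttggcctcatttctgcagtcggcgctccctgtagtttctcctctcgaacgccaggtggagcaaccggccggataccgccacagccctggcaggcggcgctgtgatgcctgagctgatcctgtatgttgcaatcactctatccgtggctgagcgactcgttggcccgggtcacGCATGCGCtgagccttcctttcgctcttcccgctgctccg
NDUFS7: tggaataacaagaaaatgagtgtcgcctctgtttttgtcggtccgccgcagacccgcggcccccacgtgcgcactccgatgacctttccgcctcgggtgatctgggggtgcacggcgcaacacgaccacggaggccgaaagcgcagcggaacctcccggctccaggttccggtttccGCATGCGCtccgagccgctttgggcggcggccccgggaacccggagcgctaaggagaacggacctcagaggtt
SDHD: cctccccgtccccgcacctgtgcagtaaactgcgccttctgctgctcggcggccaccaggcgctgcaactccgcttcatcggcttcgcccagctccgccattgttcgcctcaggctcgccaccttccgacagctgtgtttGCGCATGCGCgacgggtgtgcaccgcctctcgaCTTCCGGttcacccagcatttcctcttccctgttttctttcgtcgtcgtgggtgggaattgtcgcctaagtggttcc
ATP5PF: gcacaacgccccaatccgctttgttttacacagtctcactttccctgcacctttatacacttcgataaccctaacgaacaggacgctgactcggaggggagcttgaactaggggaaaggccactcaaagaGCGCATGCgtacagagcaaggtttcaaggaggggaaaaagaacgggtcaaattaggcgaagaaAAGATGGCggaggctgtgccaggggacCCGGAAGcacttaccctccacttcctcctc
ATP5ME: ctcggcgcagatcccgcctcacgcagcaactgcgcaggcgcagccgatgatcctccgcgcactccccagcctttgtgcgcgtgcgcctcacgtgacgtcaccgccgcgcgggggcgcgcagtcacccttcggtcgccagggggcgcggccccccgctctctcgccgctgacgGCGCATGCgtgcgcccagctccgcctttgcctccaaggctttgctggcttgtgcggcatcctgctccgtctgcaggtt
COX8A: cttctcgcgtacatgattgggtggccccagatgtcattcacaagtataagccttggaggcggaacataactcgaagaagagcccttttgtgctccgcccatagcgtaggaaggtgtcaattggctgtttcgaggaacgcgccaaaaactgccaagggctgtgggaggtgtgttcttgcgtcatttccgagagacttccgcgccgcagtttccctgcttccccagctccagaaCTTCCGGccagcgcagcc
The NRF1 core thus stood in members lower in AGS (ATP5MC2, NDUFS7, SDHD), in a member higher in AGS (ATP5PF) and in a member that did not pass between the lines (ATP5ME).

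The second comparison was between transfected and parental cells, and the GFP control was the study's control for the transfection. Over both lines together no member passed between GFP control and parental arrays in the limma fit, where 0.269% of all genes did, and 19 members had an unadjusted p under 0.05. The count rests on the parental arrays: 25 members passed without the AGS parental array and 31 without that of HGC-27, in fits where the difference comes from the other line alone, and 4 passed without the MIST1 array of AGS, as without that of HGC-27. The GFP control and MIST1 arrays of a line were then set jointly against its parental array, with the parental array assumed to vary like them. In this fit 21 of 73 members passed in AGS, 4 higher and 17 lower in the transfected cells, against 26.4% of all genes (12.8% higher and 13.6% lower). In HGC-27 14 members passed, 10 higher and 4 lower, against 29.6% of all genes (21.4% higher and 8.15% lower). The split in HGC-27 turned with the scaling: 3 were higher and 8 lower after quantile normalization, and 1 higher and 15 lower with centred arrays. The median of all genes there was 0.11, 0.02 and -0.05 on the log2 scale under the deposited, quantile and centred scaling. The values below are on the deposited scaling, and that median of 0.11 was not taken off them. In AGS the split was 4 and 19 after quantile normalization and 8 and 14 with centred arrays. At any size, both transfected arrays of AGS lay below the parental one for 45 members (61.6%) and above it for 21 (28.8%), against 42.7% and 44.4% of all genes. In HGC-27 both lay below it for 18 members (24.7%) and above it for 39 (53.4%), against 30.5% and 54.8%. Both arrays of each line were above the parental one for 18 members and below it for 16, against 31.2% and 19.1% of all genes, and 16 members were below in AGS and above in HGC-27, against 16.6%. No member passed in either line without any 1 of the 4 transfected arrays, in fits with fewer degrees of freedom. Without the filter on dim probe sets 0 members passed in AGS and 3 in HGC-27, and without the variance trend 6 and 3.

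Of the members that rose in the transfected arrays of both lines, SDHA read 2670 in the AGS parental array and 3322 and 3412 in the GFP control and MIST1 arrays, and 2608, 3118 and 3224 in HGC-27. Both transfected arrays lay above the parental array in each line, by 0.33 (SE 0.06) in AGS and 0.28 (SE 0.06) in HGC-27. SDHA has 1 probe set, whose name ends in _x_at, a kind that can read related sequences. COX8A, the ubiquitous form of the complex IV subunit COX8, read 4547, 5618 and 5506 in AGS, against 5600, 6857 and 6457 in HGC-27, rises of 0.29 and 0.25 (SE 0.05 each). NDUFB11 of complex I read 2278, 2663 and 2895 in AGS, compared with 2081, 2654 and 2629 in HGC-27, rises of 0.29 and 0.34 (SE 0.07 each). These 3 passed in both lines, where 6.33% of all genes rose in both. Their calls held under both other scalings in AGS, and under at most 1 of them in HGC-27. UQCRC1 rose in AGS (0.29, SE 0.07) and differed by 0.15 in HGC-27 (adjusted p = 0.147).

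In both lines 4 members fell, and all 4 calls held under both other scalings in each line. ATP5IF1 read 5180 in the AGS parental array and 3742 and 3561 in the transfected ones, and 3693, 2924 and 2585 in HGC-27. It fell by 0.51 in AGS and by 0.43 in HGC-27 on the log2 scale (SE 0.08 each). A second bright probe set of ATP5IF1 changed by -0.69 and -0.31, and the dimmer one by 0.16 and 0.08. UQCRC2, a core protein of complex III, read 3820, 2722 and 2594 in AGS, against 3978, 3193 and 3007 in HGC-27, with both transfected arrays below the parental one in each line. It fell by 0.52 and by 0.36 (SE 0.06 each). A second bright probe set of UQCRC2 changed by -0.29 in AGS and by -0.07 in HGC-27. NDUFA7 fell by 0.45 in AGS and by 0.46 in HGC-27 (SE 0.08 each). Its dim second probe set, between 54.5 and 75.8, changed by -0.42 in AGS and by 0.16 in HGC-27. ATP5ME, a subunit of the membrane part of the ATP synthase, read 4294, 3550 and 3456 in AGS, compared with 4408, 3652 and 3503 in HGC-27 and fell by 0.29 and by 0.30 (SE 0.05 each). Of all genes, 3.4% fell in both lines.

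**Figure D3:**
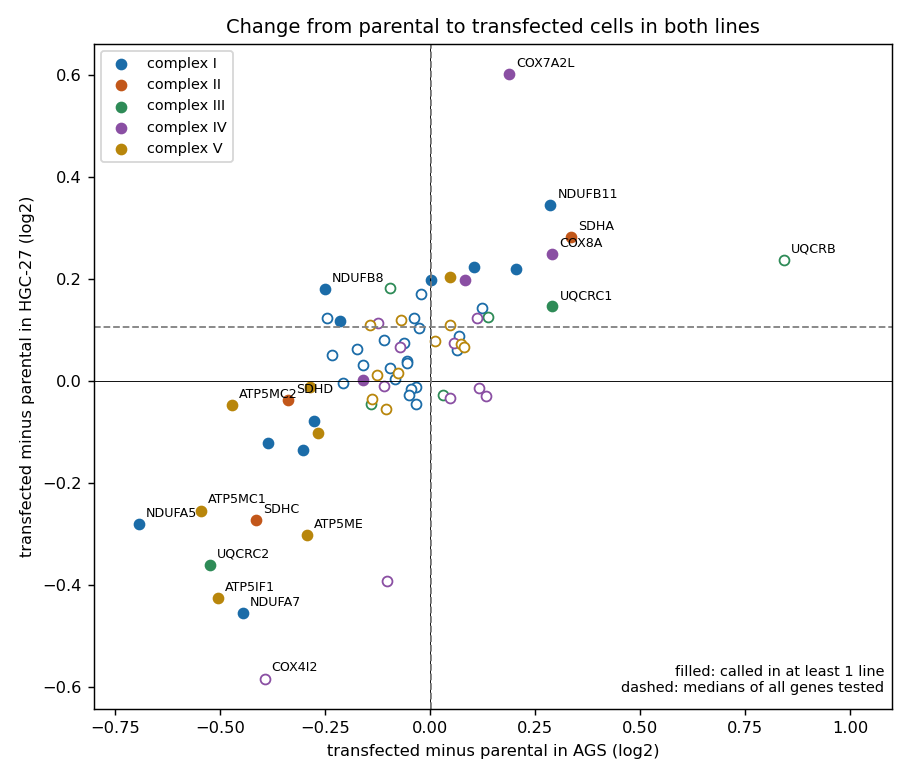
The change from parental to transfected cells (mean of the GFP control and MIST1 arrays minus the parental array, log2) is plotted for each of the 73 members in AGS (horizontal) and HGC-27 (vertical), coloured by complex and filled where it passed in at least 1 line. SDHA, COX8A and NDUFB11 lie up and to the right, ATP5IF1, UQCRC2, NDUFA7 and ATP5ME down and to the left, and UQCRB, at 0.84 in AGS (adjusted p = 0.353), was high in its MIST1 array alone.

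Other members fell in AGS without passing in HGC-27. NDUFA5, an accessory subunit of complex I, read 1373, 881 and 819 in AGS, against 1396, 1238 and 1068 in HGC-27. It fell by 0.69 in AGS (SE 0.11) and changed by -0.28 in HGC-27 (adjusted p = 0.10). ATP5MC1 read 2891, 2046 and 1916 in AGS, compared with 3255, 2872 and 2595 in HGC-27, a fall of 0.55 (SE 0.08) and a change of -0.25 (adjusted p = 0.0597). ATP5MC2 fell by 0.47 in AGS (SE 0.06) and changed by -0.05 in HGC-27, whereas ATP5MC3 changed by -0.08 and 0.02. In complex II, SDHC fell by 0.42 and SDHD by 0.34 in AGS while SDHA rose, so that all 3 members passed there, and in HGC-27 SDHC changed by -0.27 (adjusted p = 0.0549) and SDHD by -0.04. SDHC has 5 other probe sets past the brightness limit. The 3 brighter ones changed by between -0.17 and 0.07 in AGS and between 0.07 and 0.29 in HGC-27, and the 2 dimmer ones by -0.37 and -0.38 in AGS and by 0.05 and -0.12 in HGC-27.

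In HGC-27 the largest rise was in COX7A2L, which takes part in joining complexes III and IV into supercomplexes. It read 2193 in the parental array and 3353 and 3300 in the transfected arrays, against 2409, 2774 and 2714 in AGS. The rise of 0.60 (SE 0.06, adjusted p = 0.00214) held under both other scalings, and the change in AGS was 0.19 (adjusted p = 0.0511). Further members that rose in HGC-27 were NDUFA1 and NDUFS6 (0.22 each), COX4I1, NDUFS3 and ATP5MK (0.20 each) and NDUFB8 (0.18), none of which passed under both other scalings. A second bright probe set of COX4I1 changed by -0.001 there and a dim one by 0.63. Of 9 other probe sets of the 14 members that passed in HGC-27, 5 had the sign of the brightest one. The other 4 were of ATP5IF1, COX4I1, NDUFA7 and NDUFB8. In AGS 14 of 19 had that sign, and 5, of ATP5IF1, ATP5PB, NDUFB7, NDUFB8 and SDHC, the other. By complex, the median change in AGS was -0.06 for complex I with 1 member higher and 7 lower of 32, -0.34 for complex II with 1 and 2 of 3, 0.03 for complex III with 1 and 1 of 7, 0.05 for complex IV with 1 and 1 of 14, and -0.13 for complex V with 0 and 6 of 17, where 12.8% of all genes were higher and 13.6% lower. In HGC-27 it was 0.06 with 5 and 1, -0.04 with 1 and 0, 0.13 with 0 and 1, 0.03 with 3 and 0, and 0.01 with 1 and 2, in the same order and of the same numbers tested, where 21.4% of all genes were higher and 8.15% lower.

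The difference between the lines in their response was tested in the same fit. It passed for 5 of 73 members, all higher in HGC-27, against 10.2% of all genes (7.53% higher and 2.66% lower). They were NDUFB8 (0.43, SE 0.06, adjusted p = 0.0197), ATP5MC2 (0.42, SE 0.09), COX7A2L (0.41, SE 0.08), NDUFA11 (0.33, SE 0.07) and ATP5PB (0.27, SE 0.06). NDUFB8 read 4864, 4076 and 4097 in AGS, against 5070, 5787 and 5696 in HGC-27, and so fell in AGS and rose in HGC-27, as 0.888% of all genes did. A second bright probe set changed by 0.04 in AGS and by 0.08 in HGC-27, and a dimmer one, between 120 and 233, by -0.26 and -0.17. None of the 5 passed under both other scalings, 56 of 73 members differed upward under the deposited scaling but 15 of 73 with centred arrays, and without any 1 of the transfected arrays no member passed.

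The comparison the series was made for is MIST1 against GFP control. No member passed, and no gene did (0.0%), in the limma fit, where 184 genes and 0 members had an unadjusted p under 0.05. No member was at least 1.5-fold apart the same way in both lines, where 0.233% of all genes were. The median, MIST1 minus GFP control, was -0.05 over the members and -0.02 over all genes on the log2 scale. Of the members, 41 (56.2%) were lower in the MIST1 array of both lines, at any size, and 9 (12.3%) were higher in both, against 32.7% and 24.5% of all genes. The number above 0 in the fit was 20 of 73 under the deposited scaling, 21 after quantile normalization and 28 with centred arrays. By complex the medians were -0.06 for complex I, 0.04 for complex II, -0.06 for complex III, -0.03 for complex IV and -0.05 for complex V.

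None of the following members passed, and their values are given as measured, as MIST1 minus GFP control over both lines. In complex I they ran from -0.18 in NDUFV3, -0.16 in NDUFA5 and -0.14 in NDUFS7 to 0.06 in NDUFS6, 0.07 in NDUFB7 and 0.09 in NDUFB10. In complex II they were -0.14 in SDHC, 0.04 in SDHA and 0.08 in SDHD. In complex III the lowest was UQCR11 at -0.11, and in complex V the range was from ATP5IF1 and ATP5MC1 at -0.12 to ATP5MK at 0.05. In complex IV the highest values, COX4I2 at 0.40 and COX6A2 at 0.19, came from dim probe sets, which read 41.6 and 67.7 (COX4I2) and 56.6 and 44.9 (COX6A2) in the AGS GFP control and MIST1 arrays. COX6A2 went in opposite directions in the lines, with 38.1 and 62.5 in those of HGC-27.

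UQCRB, known as the ubiquinone-binding protein of complex III, stood apart in 1 array. Its brightest probe set read 4819 and 4610 in the parental and GFP control arrays of AGS and 16180 in the MIST1 array, against 4245, 5076 and 4931 in HGC-27. The AGS MIST1 array was thus high by 1.81 on the log2 scale over the GFP control, while the HGC-27 arrays differed by -0.04, and the fit over both lines gave 0.88 (SE 0.39, unadjusted p = 0.062). The other probe sets of the gene did not follow. The second bright one read 4921, 4464 and 2515 in AGS, lower in the MIST1 array by 0.83, and 4186, 5167 and 4976 in HGC-27. The dim one read 415, 369 and 336 in AGS, compared with 306, 322 and 314 in HGC-27. UQCRB therefore has no level in the AGS MIST1 array on which its probe sets agreed.

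**Figure D4:**
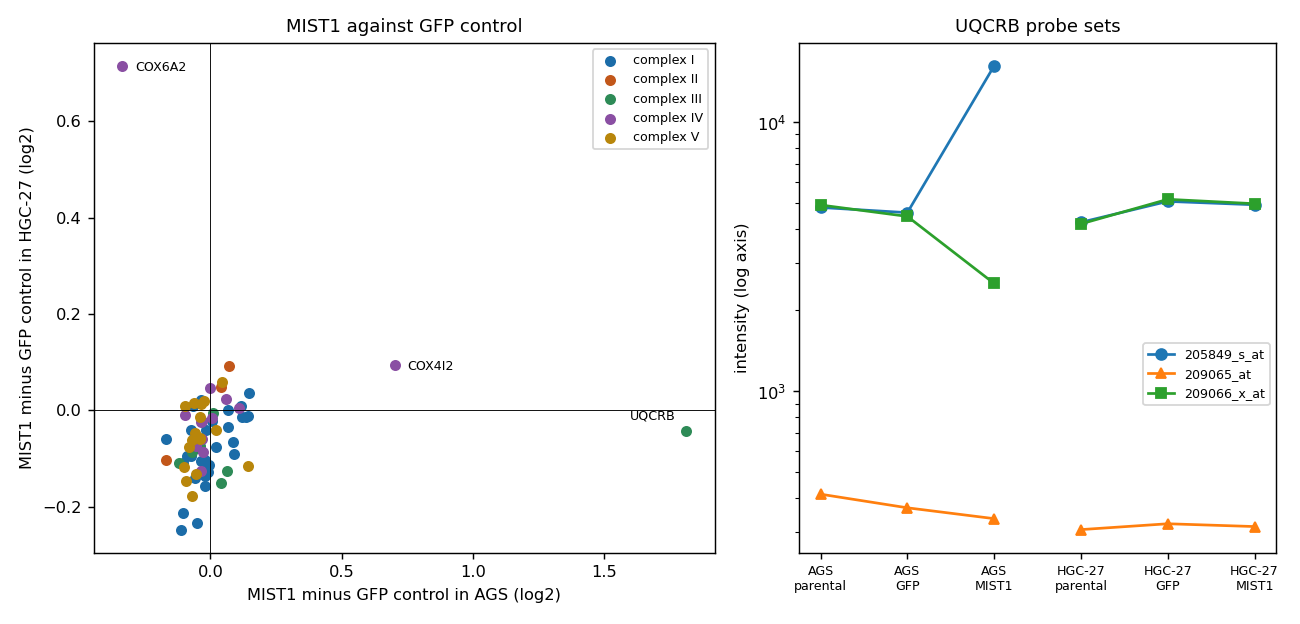
On the left, MIST1 minus GFP control (log2) is plotted for each of the 73 members in AGS (horizontal) against HGC-27 (vertical), and on the right the linear intensity of 3 UQCRB probe sets is drawn on a log axis for the 6 arrays. Most members lie within a small range around 0, and UQCRB stands at 1.81 in AGS, where 1 of its probe sets read 16180 in the MIST1 array while another read 2515.

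Against the parental arrays, which are the second control, 3 of 73 members passed for MIST1, all lower, where 3.4% of all genes passed (2.19% higher and 1.21% lower). They were ATP5IF1 (-0.53, SE 0.07, adjusted p = 0.0376), UQCRC2 (-0.48, SE 0.08, adjusted p = 0.0407) and SDHC (-0.41, SE 0.08, adjusted p = 0.0475), and all 3 passed under both other scalings. None of the 3 passed with the floor at the median, without the filter on dim probe sets, with the mean of probe sets, with no block for cell line or with no trend in the variance, where the count was 0 each time. The GFP control minus parental values of these 3 were on the same side in each line, and both comparisons share the parental arrays. The count was 19 without the AGS parental array, 36 without that of HGC-27, 1 with the MIST1 array of AGS left out and 5 with the GFP control of HGC-27 left out. No member was at least 1.5-fold apart the same way in both lines here, where 5.6% of all genes were. Between GFP control and parental arrays 1 member was, the dim COX4I2, which read 69.8 and 41.6 in AGS, with 94.7 and 61.2 in HGC-27, where 1.59% of all genes were lower in that way and 4.72% differed that way in either direction.

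Genes that serve the complexes without being nuclear-encoded subunits were described for the same comparisons. Assembly factors, which insert cofactors and join subunits, fell in AGS: 25 of 50 tested fell and 1 rose in the transfected cells, with a median of -0.32, where 13.6% of all genes fell and 12.8% rose (3 rose and 23 fell after quantile normalization, 4 and 22 with centred arrays). COA5, a factor of complex IV assembly, read 389, 181 and 156 in AGS and fell by 1.21 (SE 0.15). UQCC3, a factor of complex III assembly, read 1453, 745 and 630 in AGS, against 947, 580 and 586 in HGC-27 and fell by 1.08 and by 0.70 (SE 0.12 each). COX20 rose in AGS (0.40, SE 0.08). In HGC-27 10 assembly factors (20%) rose and 3 (6%) fell, near the 21.4% and 8.15% of all genes, among them TMEM70, a factor of ATP synthase assembly, which rose by 0.55 (SE 0.05), and FMC1, which fell by 0.41 (SE 0.10). That split turned to 3 and 5 after quantile normalization and to 1 and 6 with centred arrays. The response differed between the lines for 14 assembly factors, all higher in HGC-27, where 7.53% of all genes were higher and 2.66% lower, with 7 higher after quantile normalization and 5 higher and 1 lower with centred arrays.

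The other lists are read against the same shares of all genes, 12.8% higher and 13.6% lower in transfected AGS cells and 21.4% higher and 8.15% lower in transfected HGC-27 cells. Of the regulators of mitochondrial gene expression, 10 of 24 were lower and none higher in the transfected AGS cells. PPARGC1B, a coactivator of these genes, read 82.7, 37.4 and 39.0 in AGS, compared with 301, 228 and 219 in HGC-27. It fell by 1.11 in AGS (SE 0.14) and changed by -0.43 in HGC-27 (adjusted p = 0.0565). MYC, which also drives mitochondrial genes, read 3366, 1582 and 1794 in AGS and fell by 0.999 there (SE 0.09). In HGC-27 4 rose and 2 fell, near the shares of all genes, and EPAS1, which encodes HIF-2 alpha, read 60.1 in the parental array and 142 and 146 in the transfected ones, a rise of 1.26 (SE 0.10). Of the protein import machinery, 10 of 21 fell and none rose in AGS, led by PAM16 (-0.63, SE 0.08), and 3 rose and 1 fell in HGC-27. Citric acid cycle enzymes gave 1 higher and 3 lower of 16 in AGS, where SUCLA2 fell by 0.65 and OGDH rose by 0.42, and 2 higher and 1 lower in HGC-27, where IDH3A rose by 0.40; these counts lie near the shares of all genes. Of 12 carriers and outer membrane channels, 1 rose and 2 fell in AGS and 3 rose and 2 fell in HGC-27, with SLC25A3, the phosphate carrier, higher by 0.20 in AGS (SE 0.04) and VDAC3 lower in both lines by 0.47 and by 0.32. Of 23 electron carriers and subunits outside the families, 1 rose and 7 fell in AGS, where PRODH fell by 1.06, and 4 rose and 1 fell in HGC-27.

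Of the mitochondrially encoded subunits, 3 of 7 fell in each line and none rose. COX3 read 376, 70.0 and 71.2 in AGS, against 456, 62.2 and 67.7 in HGC-27, so that it fell by 2.41 and fell by 2.81 (SE 0.14 each). ND6 read 802, 203 and 218 in AGS, compared with 540, 175 and 185 in HGC-27, so that it fell by 1.93 and fell by 1.59 (SE 0.11 each). ND2, the third, read 13855, 10845 and 11793 in AGS, against 12472, 10569 and 10794 in HGC-27. It fell by 0.29 and by 0.22 (SE 0.05 each). COX1 and COX2 changed by between -0.07 and -0.01. COX1 read between 14381 and 15994, where the highest of all values was 19070. The COX3 probe set is of a kind that can read related sequences, and the probe set for 18S ribosomal RNA, which also fell in both lines, moved with it; its part in the result was not tested.

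**Figure D5:**
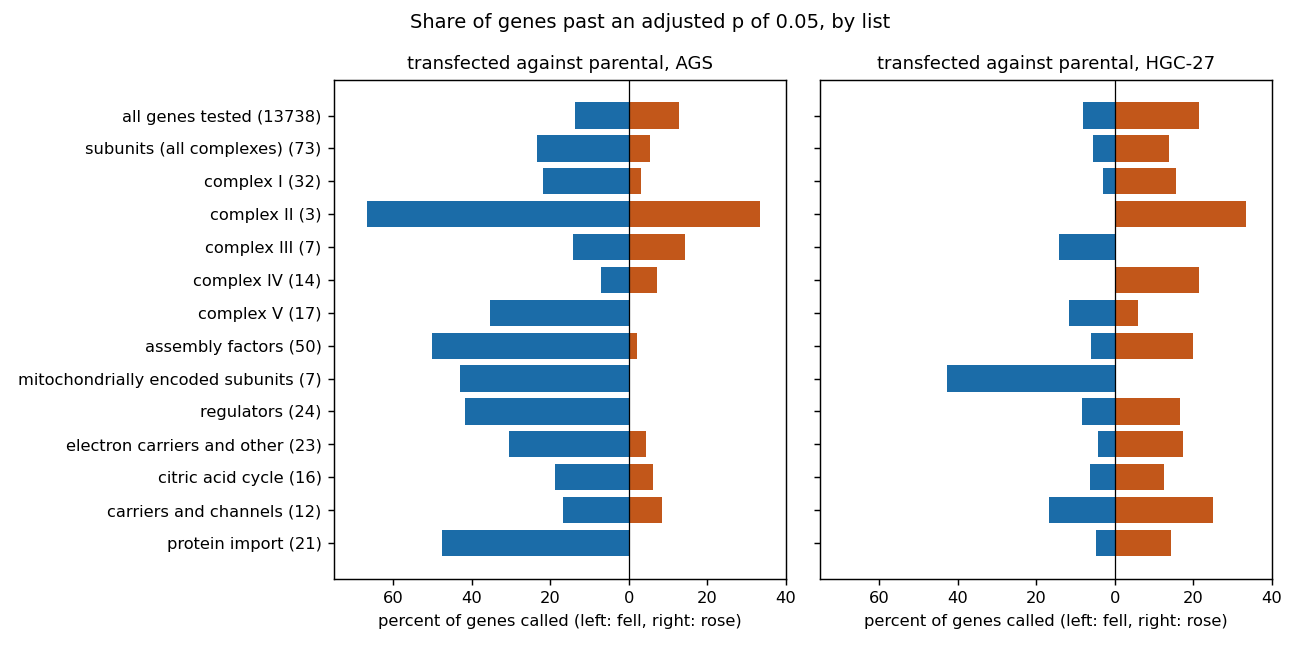
Bars give the percent of genes tested that fell (left) or rose (right) past an adjusted p of 0.05 in transfected against parental cells, for AGS and HGC-27, with the number of genes tested beside each list. In AGS assembly factors (25 of 50) and protein import genes (10 of 21) reach furthest to the left among the lists of 20 or more genes, while the subunits are at 17 of 73 and all genes at 13.6%.

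Between the lines, the assembly factors had 11 higher and 22 lower of 50 in AGS with a median of -0.19, and the citric acid cycle enzymes 3 higher and 9 lower of 16 with a median of -0.45, where 33.1% of all genes were higher and 27.1% lower. LYRM7, a factor of complex III assembly, read 301, 178 and 168 in AGS, against 892, 911 and 834 in HGC-27 (-2.08, SE 0.18), and ECSIT of complex I assembly differed by -1.49 (SE 0.13). PET117 and NUBPL were higher in AGS, by 0.94 and 0.95. Of the citric acid cycle enzymes, IDH3G was lower by 0.93 (SE 0.08) and SUCLG2 higher by 0.68 (SE 0.09) in AGS. Larger differences stood in genes around the chain: SLC25A4, the ADP/ATP carrier of muscle and heart, read 89.2, 98.3 and 89.8 in AGS, compared with 1093, 1432 and 1491 in HGC-27 (-3.85, SE 0.13). SQOR, which feeds electrons from sulfide to ubiquinone, read 751, 1079 and 1163 in AGS, against 27.8, 50.4 and 62.9 in HGC-27 (4.46, SE 0.15). PPARGC1B was lower in AGS by 2.32 (SE 0.19) and PPRC1 by 1.46 (SE 0.09), while EPAS1 was higher by 3.57 (SE 0.30). Of the mitochondrially encoded subunits, 3 of 7 were higher in AGS under the deposited scaling and none under the other 2 scalings.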

How the data were processed

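The authors' deposited values are linear intensities of 54675 probe sets of an Affymetrix array on 6 arrays, 1 per line and condition. The authors analysed the arrays in dChip, per the series' design text. The scaling and background correction behind the deposited values are not given in the sources used here. Of the probe sets, 41097 carry 1 gene, 1801 several and 11777 none, by the platform annotation with symbols updated through RefSeq. Intensities under 17.6, their 25th percentile, were set to it and log2 was taken. Probe sets above the median of all values on fewer than 2 of the 6 arrays were left out, and the brightest remaining one stood for each of the 13738 genes tested. Each difference was tested with limma 3.58.1 in R 4.3.3 (lmFit and eBayes with a trend, two-sided), with p-values adjusted by Benjamini-Hochberg over all genes and a threshold of 0.05. The main model held line and condition, with 2 residual degrees of freedom. The response within each line came from a model of line, transfection and their product, again with 2.

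Arrays pair by cell line, as the labels give it, and the main model holds that block. The members and lists were chosen with earlier results of these data known. The text names up to 3 members of each complex with the largest difference in each direction, members at least 1.5-fold apart in every line or condition, isoform families, complex II, members called in both lines or differing between the lines, and leading genes of the other lists. Promoter sequences are those of RefSeq (GRCh38.p14), with 65 members matched. The alternatives changed the scaling, the floor, the filter, the choice of probe sets, the variance trend, the block, the fold and the arrays used. The endothelial and muscle marker lists summed to between 241 and 287, and 430 and 501. The leukocyte list summed to between 2169 and 2793 in AGS and between 240 and 289 in HGC-27, with CD3D under the floor on all arrays.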

Additional observations from a re-analysis of the deposited data

Results flagged for a closer look

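The change from parental to transfected cells differed between the lines, by the test of that difference, for 5 members of 73, beside 10.2% of all genes, a larger share. HGC-27 minus AGS was 0.43 for NDUFB8, 0.42 for ATP5MC2, 0.41 for COX7A2L, 0.33 for NDUFA11 and 0.27 for ATP5PB on the log2 scale, and 0 of the 5 passed under both other scalings.

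In MIST1 minus GFP control the lines stood furthest apart for 2 members, which went opposite ways, and this difference was not tested. AGS minus HGC-27 was 1.85 for UQCRB, where 1 array and 1 of its probe sets were high, and -1.05 for COX6A2, a dim probe set. The value of UQCRB in HGC-27 was small, at -0.04, and its second bright probe set went the same way in both lines (-0.83 in AGS and -0.05 in HGC-27).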

How the results depend on the processing

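No array was repeated, so a call rests on the spread between single arrays of different conditions or lines. Members that differed between the lines numbered 47, 31 without a variance trend and 38 to 57 when 1 array was left out. For GFP control minus parental the count of 0 became 4 with only the 4 arrays compared, and 0 to 31 with 1 array left out; for MIST1 minus GFP control it was 0 to 1. For MIST1 minus parental the count of 3 became 7 (quantile), 5 (centred), 5 (only the 4 arrays compared), 1 (no floor beyond an intensity of 1), 1 (names ending in _x_at or _s_at left out) and 0 (floor at the median, no filter, mean of probe sets, no variance trend), with 1 to 36 when 1 array was left out. Without the block for cell line it was 0, and leaving it out moved none of the other 3 counts fitted with it by over 1.5 times. In transfected AGS the 21 became 0 (no filter), 11 (_x_at and _s_at left out) and 6 (no trend), and in HGC-27 the 14 became 3 (no filter) and 3 (no trend). The 5 members whose response differed became 2 (quantile), 1 (centred), 0 (floor at the median), 2 (no filter), 3 (_x_at and _s_at left out) and 0 (no trend). These last 3 counts were 0 without any 1 transfected array, in fits with 1 residual degree of freedom. The count at least 1.5-fold apart in both lines, 1 for GFP control minus parental, became 0 (floor at the median), 3 (_x_at and _s_at left out), 6 (1.2-fold) and 0 (2-fold). For MIST1 minus parental the 0 became 1 (no filter), 1 (_x_at and _s_at left out) and 9 (1.2-fold). Between the lines the sign turned for COX6B1 with centred arrays (-0.00152), with the mean of probe sets for ATP5IF1 (-0.080) and NDUFA2 (-0.10), and without _x_at and _s_at probe sets for ATP5IF1 (-1.29), NDUFA2 (-0.61), SDHC (-0.14) and NDUFB7 (0.068). Without those probe sets, which leaves 56 members and other probe sets of these genes, it also turned for ATP5IF1 in MIST1 minus parental (0.067), in transfected AGS (0.16) and in transfected HGC-27 (0.084), for ATP5PB (0.13), NDUFB7 (0.14) and NDUFB8 (0.044) in transfected AGS, and for UQCRB in MIST1 minus GFP control (-0.084). Beyond what these constructions show, the cause was not tested. Dim probe sets such as COX4I2 and COX6A2 read near the median of all values and limit what can be said of those isoforms.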
